A study of Rattus norvegicus with 24 samples.

Results

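The comparison described here is infarction against sham operation in the rat left ventricle, 7 days after surgery. It rests on 12 of the 24 arrays of the series, chosen by their titles: 6 of rats with a myocardial infarction (MI) and 6 of sham-operated rats, 1 array per sample of total RNA. Per the labels, the MI samples were left ventricle and septum without the infarct zone, and the sham samples were left ventricle and septum with nothing removed. The labels give no strain, sex or age, and no drug or genotype. Nothing in them ties an array to its own animal, and the p-values below speak only of the scatter among these arrays, part of which may be technical. Because the infarct zone was left out of every MI sample and no part was left out of a sham sample, the operation and the part of the heart taken cannot be told apart in these data. The other 12 arrays, of hearts taken 1 day after surgery, entered the shared estimate of each probe's spread. They also entered the mean intensity by which probes were ranked, and the alternative scalings and weights over all 24 arrays. Otherwise they are used for single comparisons.

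An infarction kills the muscle that a blocked coronary artery supplied, and the muscle that survives then carries the load of the whole ventricle. In the days that follow, inflammatory cells clear the dead tissue, fibroblasts lay down collagen, and the surviving muscle enlarges and takes up genes of the fetal heart, such as those for natriuretic peptides. The part of the ventricle outside the infarct, which was sampled here, is known for this remodelling rather than for the scar itself. None of these genes could be looked up: the deposited table gives probe IDs beginning in R or RG without gene names, and 0 of its 1185 IDs matched the RefSeq gene table at hand. The labelled tissue could therefore not be checked against its marker genes, and the probes below are given by ID, with what each did and not what it measures.

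The values are positive intensities deposited on a linear scale, with many cells blank. A probe with a value on an array is called listed there. Blank cells made up 55.5% of the day 7 table, and because the rule that left a cell blank is unknown here, a blank was taken as a missing value only. The median over listed probes lay between 91.1 and 100.4 on the 12 arrays. Probe R371 was 100 on every array and was left out. Of the remaining 1184 probes, 894 were listed on at least 1 day 7 array, 208 on all 12 and 290 on none. A probe was tested when at least 3 arrays of each operation listed it, which 486 probes did.

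The array titles carry numbers that fall, at day 7, into 3 runs of 4 consecutive numbers: A501 to A504, A513 to A516 and A517 to A520. Each run held 2 sham and 2 MI arrays, so operation is balanced within runs. What a run stands for is not stated in the labels. The run A501 to A504 stood apart from the others. Over the 208 probes listed on all 12 arrays, the correlation of log2 intensity across probes was 0.832 to 0.983 (median 0.931) among the 8 arrays of the later runs, and 0.710 to 0.922 (median 0.851) between those 8 arrays and the first run. Probes are not independent replicates, and the arrays share the differences in level between probes, so these correlations only describe the arrays. Arrays of the same operation and the same run were the most alike, with a median of 0.963 over 6 pairs. Arrays of different operations within a run reached 0.919 over 12 pairs, and arrays of the same operation in different runs 0.889 over 24 pairs.

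**Figure D1:**
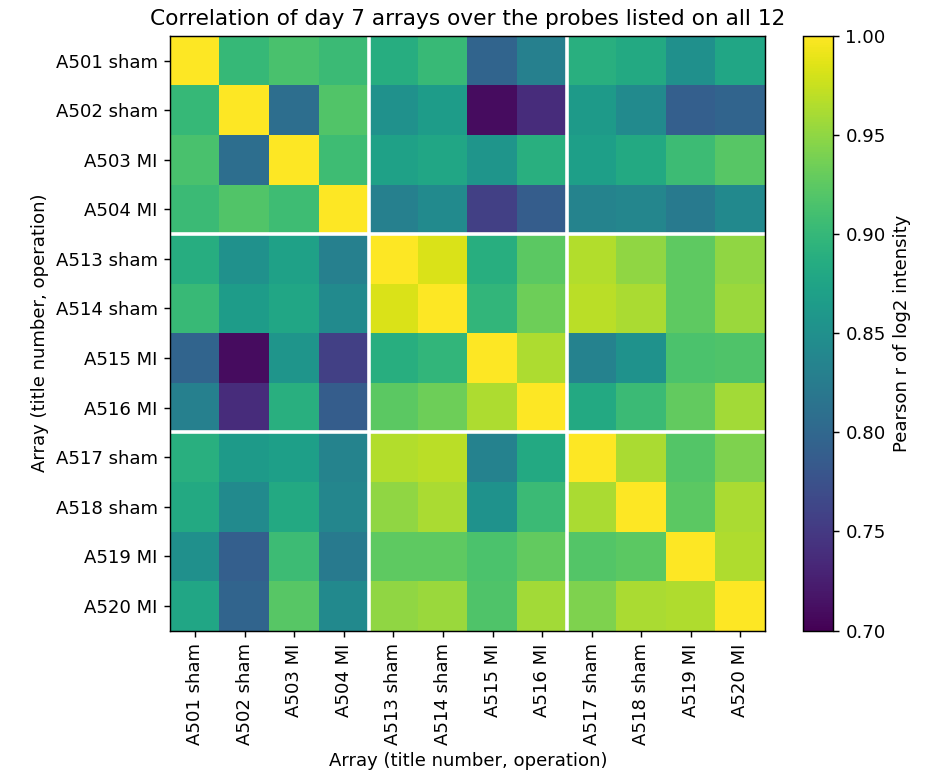
Pearson correlation of log2 intensity between the 12 day 7 arrays over the 208 probes listed on all of them, with arrays ordered by title number, white lines between the 3 runs and colour from 0.70 to 1.00. The darker bands join the run A501 to A504 to the later arrays, where the correlation goes down to 0.710, while the 8 later arrays stay between 0.832 and 0.983 among themselves.

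The same separation appeared in the sums of squares of those 208 probes. Run accounted for 45.1% of the sum of squares over 2 degrees of freedom, operation for 19.5% over 1, and their combination for 7.95% over 2. The remaining 27.4%, over 6 degrees of freedom, was the difference between arrays of the same operation and run. A limma F test of the run terms, with operation in the model, was added after the data had been seen, and 120 of 453 probes (26.5%) differed among runs at an adjusted p under 0.05. In 92 of the 120 the first run was lower than both later runs, and in 22 it was higher than both. The median size of the log2 difference over the 120 was 0.61 between A513 to A516 and A501 to A504, but 0.14 between the later 2 runs. The 120 were picked by a test on these same values, and neither these counts nor these medians were taken over all 453 probes. The spread within a group was much alike for the 2 operations: the median SD of log2 intensity over the 208 probes was 0.22 in MI and 0.23 in sham.

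After infarction 7 of the 486 tested probes (1.44%) were higher than in sham, and 0 (0%) were lower. The test was limma's moderated test on log2 intensity, with 1 mean per group over all 24 arrays and Benjamini-Hochberg adjustment over the 486 probes, and a probe was called at an adjusted p under 0.05. At an unadjusted p under 0.05 there were 37 higher and 4 lower probes. This split depended on the scaling and the weighting, with 53 higher and 20 lower after each array was shifted to the same mean over the probes listed on every array (complete-probe scaling), and 69 and 32 with array weights. The 7 called probes were 1.71 to 2.98 times their sham level, and for all 7 the lowest MI array lay above the highest sham array. Such a separation was seen upward in 22 of the 486 probes (4.53%) and downward in 4 (0.823%). Fewer sham than MI arrays listed 4 of the 7, and the other 3 were listed by as many of each. Over all 486 tested probes, fewer sham than MI arrays listed 133 and fewer MI than sham arrays listed 62.

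R272 had the largest fold of the called probes. Its sham intensities were 48.1 on A501, 35 on A513, 38.0 on A514, 29.5 on A517 and 69.5 on A518. Its MI intensities were 118 on A504, 164 on A515, 147 on A516, 117 on A519 and 93.6 on A520. Arrays A502 and A503 had no value, the lowest MI array lay above the highest sham array, and the sham array nearest to MI was A518. The fold was 2.98, a log2 difference of 1.58 (SE 0.25, limma adjusted p = 0.000599).

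RG433 was listed on all 12 arrays, at 77.0, 91.5 and 171 (lowest, median and highest) in sham and at 195, 260.0 and 318 in MI. The highest sham value, on A501, stood well above the other 5 sham arrays, which ended at 104, and still lay under the lowest MI value, on A520. Both operations were brighter in the first run than in the last. The fold was 2.51, a log2 difference of 1.33 with a 95% interval of 0.91 to 1.74 (SE 0.20, limma adjusted p = 0.000352).

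The other 5 called probes are named as chosen after their values were seen. R344 was also listed on all 12 arrays, at 103, 145 and 164 in sham and 217, 237 and 260 in MI (lowest, median and highest). The 6 MI arrays lay within a narrow band, with a mean of 236 ± 16.3 (SD, n = 6) against 139 ± 22.0 (SD, n = 6) in sham. Its log2 difference of 0.78 (SE 0.17, limma adjusted p = 0.025) was the smallest of the 7. R017 was at 59.9 to 70.2 on the 5 sham arrays that listed it and at 99.6, 113 and 171 (lowest, median and highest) in MI. Sham was tight here and MI was spread by A504 at the top, and the log2 difference was 0.92 (SE 0.20, limma adjusted p = 0.0202).

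R237 was listed on 3 sham arrays, at 35.2 on A514, 39.0 on A517 and 44.8 on A518, and on all 6 MI arrays, at 71.4, 79.7 and 103 (lowest, median and highest). None of the sham arrays of the first run listed it. Its log2 difference was 1.03 (SE 0.22, limma adjusted p = 0.025). R642 was likewise blank on both sham arrays of the first run, and was at 69.6 on A513, 53.1 on A514, 38.9 on A517 and 59.1 on A518. In MI it was at 75.5, 112 and 170.4 (lowest, median and highest), with the low end from A503 and A504. Its log2 difference was 1.03 (SE 0.24, limma adjusted p = 0.0252). R589 had sham values of 50.6 on A502, 45.6 on A513, 76.4 on A514 and 102 on A518, and MI values of 108, 125 and 148 (lowest, median and highest). The operations lay close together on this probe, with the sham array A518 just under the lowest MI array, A503. Its log2 difference was 0.95 (SE 0.23, limma adjusted p = 0.0415).

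**Figure D2:**
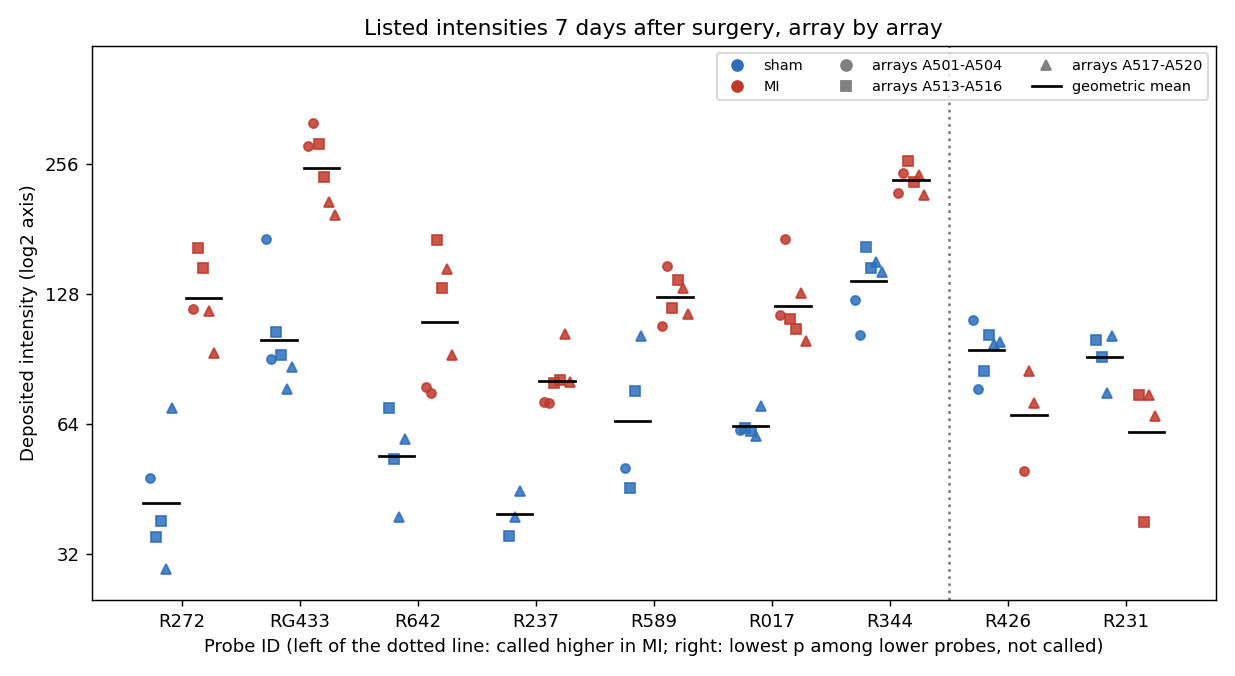
Deposited intensity on a log2 axis for the 7 probes called higher in MI and for R426 and R231, the lower probes with the smallest p, with 1 point per array that listed the probe, colour for operation, symbol for the run of title numbers and a bar at the geometric mean. For the 7 probes left of the dotted line every MI point lies above every sham point, and the 2 probes on the right were not called.

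In the other direction no probe passed. By the rule for naming probes, those with the smallest p were R426 and R231. R426 was at 77.2, 98.5 and 111 (lowest, median and highest) on the 6 sham arrays and at 49.8 on A504, 84.9 on A519 and 71.5 on A520 in MI, so the operations overlapped. Its log2 difference was -0.50, with a 95% interval of -0.97 to -0.03 (limma adjusted p = 0.568). R231 was at 100.1 on A513, 91.4 on A514, 75.4 on A517 and 102 on A518 in sham, and at 74.8 on A515, 37.9 on A516, 74.5 on A519 and 66.8 on A520 in MI. The operations did not overlap, with A515 and A517 less than 1 unit apart, and the log2 difference was -0.58 (95% interval -1.14 to -0.02, limma adjusted p = 0.568).

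The called probes were spread over much of the intensity range. Their mean log2 intensity, taken over the arrays of both days, ranked from the 18.9th percentile of the tested probes (R237) to the 75.9th (R344). A sham mean under 100.1, the median of that value over all tested probes, was found for 5 of the 7. Of the 7, 6 had IDs beginning in R and 1 in RG. That was 2.20% of the 273 tested R probes and 0.469% of the 213 tested RG probes, and the difference between the ID series was not tested. Over all 486 probes the log2 difference had a median of 0.052, with 281 probes above 0 and 205 below, and 5% and 95% points of -0.38 and 0.66. The balance of higher and lower probes was not stable: without A501 the median was -0.0014 with 50% of the probes higher, and in the fit to the 12 day 7 arrays with runs as a block and complete-probe scaling it was -0.016 with 46.7% higher. No tested probe was lower in MI by as much as 2-fold; the lowest value was -0.65 on the log2 scale.

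**Figure D3:**
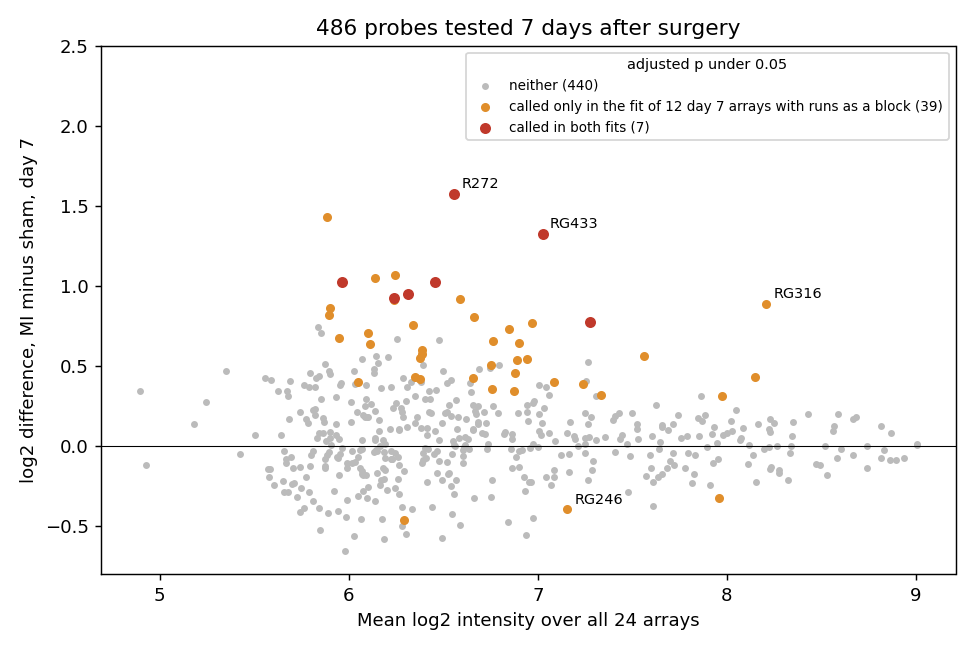
The log2 difference of MI minus sham at day 7 against the mean log2 intensity over all 24 arrays for the 486 tested probes, in red where called in the fit to all 24 arrays and also in the fit to the 12 day 7 arrays with runs as a block, and in orange where called only in the latter. The 7 red and most of the 39 orange points lie above 0, and 3 orange points, RG246 among them, lie below.

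For most probes the data bound the difference. The median half-width of the 95% interval was 0.51 on the log2 scale, and for 409 of the 486 probes (84.2%) the whole interval lay within 2-fold in either direction. That held for 113 of the 122 probes with the highest mean intensity and for 102 of the 122 with the lowest.

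The size of the rises was compared within runs. Because MI and sham did not overlap for any of the 7 probes, the sign of each within-run difference was fixed and says nothing further. Their size, over the 19 differences that could be formed, was 0.27 to 2.09 on the log2 scale. Of the 354 probes with a value for each operation in each run, 111 (31.4%) were higher in MI in all 3 runs and 68 (19.2%) were lower in all 3. RG433 gave 1.27 in A501 to A504, 1.41 in A513 to A516 and 1.31 in A517 to A520, nearly the same value in each. R017 gave 1.17, 0.81 and 0.80, and R344 gave 1.03, 0.66 and 0.63 in the same order, both with the larger difference in the first run. R589 varied most, at 1.32, 1.12 and 0.27. Several of these differences rest on 1 sham array. In the first run that was A502 for both R017 and R589. In A517 to A520 it was A518 for R589, and in A513 to A516 it was A514 for R237. R237 and R642 had no sham value in the first run and gave 1.19 and 1.30 in A513 to A516 and 1.12 and 1.27 in A517 to A520.

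**Figure D4:**
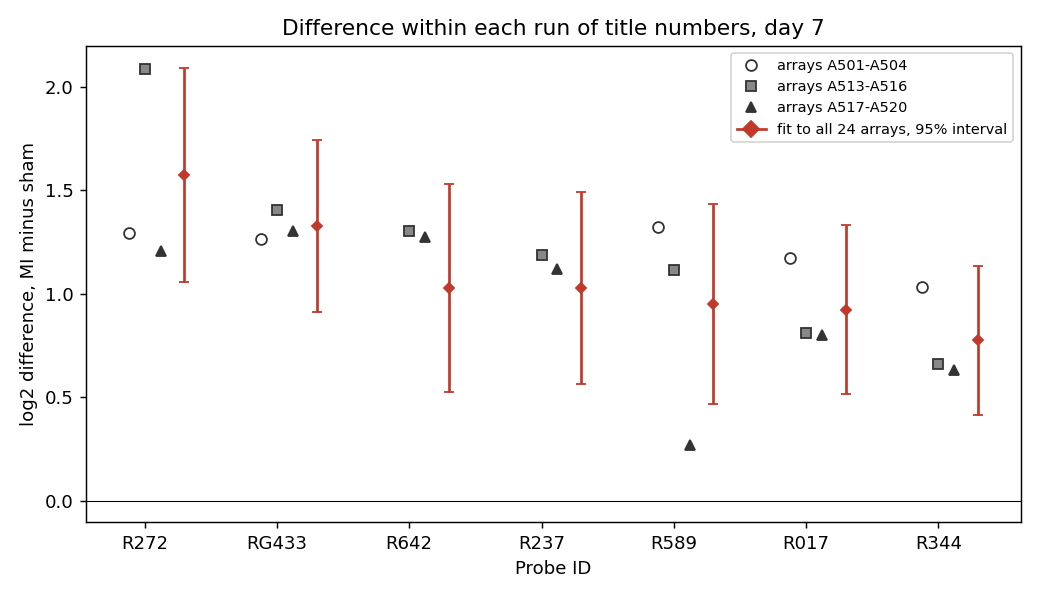
The log2 difference of MI minus sham within each run of title numbers (open circle, square and triangle) and in the fit to all 24 arrays (red diamond with its 95% interval) for the 7 called probes. The points run from 0.27 for R589 in the run A517 to A520 to 2.09 for R272 in the run A513 to A516, and R642 and R237 have no point for the run A501 to A504.

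With runs as a block and the fit limited to the 12 day 7 arrays, 43 of the 486 probes (8.85%) were higher in MI and 3 (0.617%) were lower, all 7 above among the 43. With the block in the fit to all 24 arrays 17 were higher and 0 lower in limma, and with the 12 arrays and no block 14 were higher and 0 lower (11 and 13 lower at an unadjusted p under 0.05). The median residual SD of log2 intensity was 0.39 over all 24 arrays, 0.29 over the 12 and 0.21 over the 12 with the block, so the residual spread was smaller at each step. By the blocked log2 difference, the 43 probes were 1.24 to 2.98 times their sham level, with a median of 1.57, and 8 of them reached 2-fold. The groups did not overlap in 17 of the 43, against 22 upward of all 486 tested probes (4.53%). The 43 were picked by a test on these same values, so the excess says nothing further. The count of 43 and its split depended on the scaling. With complete-probe scaling, 28 probes were higher and 10 lower. The split at an unadjusted p under 0.05 went from 90 higher and 28 lower to 74 and 72. The count of 43 also depended on single arrays. Higher probes numbered 11 without A514, 14 without A515 and 18 without A516. They numbered 19 without A502 or A517, 21 without A513, and 28 without A501 or A519. The 3 lower probes became 14 without A504, 5 without A501, 1 without A513, A519 or A520, and 0 without A514, A515, A516 or A517. Of the 7 probes called over all 24 arrays, 6 or 7 were called in each of these leave-outs.

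Some probes that were not called over all 24 arrays are given as chosen after their values were seen. RG316 was at 129, 243 and 349 (lowest, median and highest) in sham and 386, 456 and 511.9 in MI, and the groups did not overlap. Its log2 difference of 0.89 (SE 0.24) had a limma adjusted p of 0.0572 over all 24 arrays, 0.0192 there with the block, and 0.0140 in the blocked fit of 12. R204 was at 49.7 on A514, 29.1 on A517 and 42.2 on A518 in sham, and at 153 on A503, 70.6 on A504, 100 on A516 and 117 on A519 in MI. Only 7 of the day 7 arrays listed it, and at day 1 it was listed on 3 MI and 2 sham arrays. Its log2 difference was 1.43 (SE 0.36). The limma adjusted p was 0.0573 over all 24 arrays, 0.133 there with the block, and 0.0410 in the blocked fit of 12.

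The 3 probes that were lower in the blocked fit of 12 arrays were RG246, RG518 and RG158. With the block over all 24 arrays their limma adjusted p was 0.540, 0.409 and 0.251. RG246 was at 149, 198 and 230.1 (lowest, median and highest) in sham and at 116, 155 and 169 in MI, which overlap. Within each run, however, both MI arrays lay below both sham arrays, and the within-run log2 differences were -0.37, -0.48 and -0.33. Its blocked log2 difference was -0.39 (SE 0.090, limma adjusted p = 0.0179), against an adjusted p of 0.821 over all 24 arrays. RG518 was at 237, 287 and 322 in sham and at 193, 232 and 238 in MI (lowest, median and highest), and only the highest MI array, A516, overlapped the lowest sham array, A501. Its blocked log2 difference was -0.32 (limma adjusted p = 0.0425). RG158 was listed on 5 arrays of each operation, with means of 104 ± 26.4 in sham and 75.0 ± 16.1 in MI (SD, n = 5 each), and its blocked log2 difference was -0.46 (limma adjusted p = 0.0363).

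The call of 7 rested on single arrays to a degree that differed between probes. Over all 24 arrays, 3 probes were called without A515 or without A516, and 2 without A514, A517 or A519, against 5 to 8 without any other day 7 array. RG433 and R272 were called in each of these 12 leave-outs. R017 lost its call in 3 of 12, R344 in 6 of 12, R642 in 5 of 12 and R589 in 10 of 12, while R237 lost it in 3 of the 9 in which it could be tested. Leaving out a whole run left 4 arrays per operation. Without A501 to A504, 5 probes were called, 4 of them among the 7. Without A517 to A520, 2 were called. Without A513 to A516, 0 of 355 were called in limma, with 11 higher and 0 lower at an unadjusted p under 0.05. RG433 then had a log2 difference of 1.29 (limma adjusted p = 0.0646, the smallest there) and R272 of 1.24.

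Listing itself was compared between the operations. MI arrays listed 551 ± 42.9 probes and sham arrays 502.2 ± 99.6 (SD, n = 6 each), a difference of 49.2 (two-sided exact permutation p = 0.290, or 0.185 when labels were permuted within runs). The sham arrays of the first run listed the fewest, 403 and 426, and the sham array A518 the most, 683. Without A518 the difference was 85.3 (exact permutation p = 0.0152), and without A502 it was 29.3 (exact permutation p = 0.519). The gap differed between runs, with means of 506.5 in MI and 414.5 in sham in the first, 560 and 508.5 in A513 to A516, and 587.5 and 583.5 in A517 to A520. More MI than sham arrays listed 354 probes, more sham than MI arrays listed 184, and 646 were listed by as many of each.

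**Figure D5:**
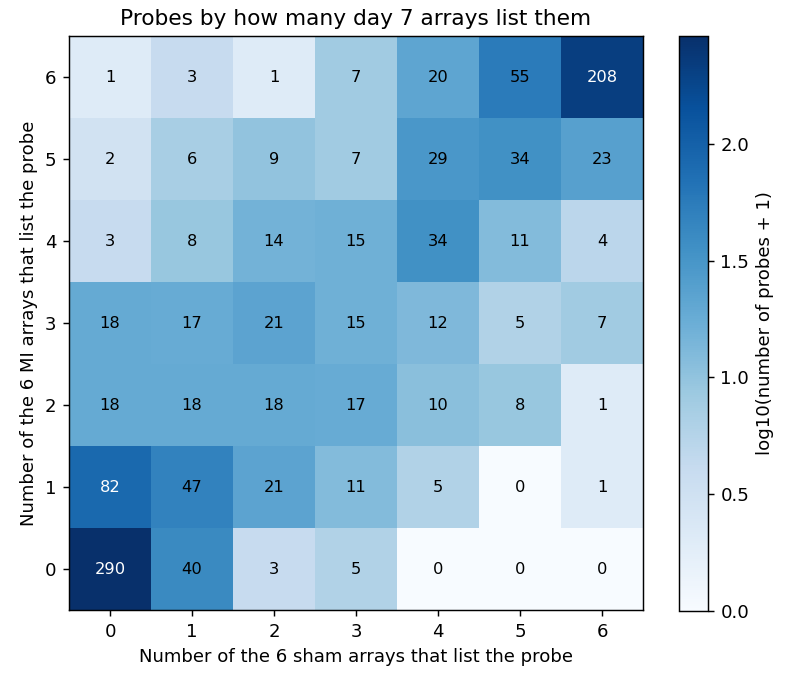
Number of probes by how many of the 6 sham arrays (horizontal axis) and of the 6 MI arrays (vertical axis) listed them, with colour on a log10 scale. The corners hold the 208 probes listed on all 12 arrays and the 290 listed on none, and the upper left corner holds 12 probes listed on at least 5 MI and at most 1 sham array, against 1 in the lower right corner.

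Probes at the ends of this pattern could not be tested for level, so they are described by their listing alone, chosen after their values were seen. At least 5 MI and at most 1 sham arrays listed 12 probes, and the reverse held for 1 probe, R424. R575 was listed on all 6 MI arrays, at 54.4 on A503, 51.5 on A504, 75.4 on A515, 63.0 on A516, 74.5 on A519 and 50.8 on A520, and on no sham array. RG147 and R497 were each listed on 5 MI arrays and no sham array, RG147 at 46.7 to 176 and R497 at 29.2 to 87.9. R424 was listed on all 6 sham arrays, at 38.2 to 106, and on 1 MI array, A504, at 72.2. The median MI intensity of the 12 probes ran from 35.1 for RG477 to 126 for R305. Without the first run, 7 probes were listed on all 4 MI and none of the 4 sham arrays and 1 on the reverse. No fold is given for any of these probes.

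The levels 1 day after surgery can be set beside those at day 7 for the called probes, but only as a description. The day 1 arrays fall into other runs of title numbers than the day 7 arrays, so day and run cannot be told apart. The effects of operation at the 2 days could be compared by an interaction term in the same limma model for 275 probes, of which 0 passed (0%; 7 at an unadjusted p under 0.05). Only RG433 and R642 of the 7 were among these. For RG433 the day 7 effect exceeded the day 1 effect by 0.52 (SE 0.34, limma adjusted p = 0.936), and for R642 by 0.051 (SE 0.38, limma adjusted p = 0.964). The rest had too few values in MI, in sham or in both at day 1, when 6 of the 12 arrays listed only 140 to 295 probes. R237 was listed on 1 day 1 sham array, at 53.5, and on no day 1 MI array. R344 was at 93.5 and 96.8 on 2 MI arrays and at 80.7 and 133 on 2 sham arrays at day 1, all under the lowest MI value of day 7. R589 had 2 values per operation at day 1, at 44.5 and 47.4 in MI and 44.4 and 61.4 in sham. R017 was at 38.2 to 64.0 on 3 MI arrays and at 41.8 and 62.5 on 2 sham arrays. R272 was at 108 to 229 on all 6 day 1 MI arrays, against 93.6 to 164 on the 5 day 7 MI arrays that listed it, and its only day 1 sham value was 77.8. R642 was at 93.6 to 155 on 6 MI arrays and 51.1 to 71.7 on 3 sham arrays, against 75.5 to 170.4 and 38.9 to 69.6 at day 7.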

How the data were processed

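Total RNA of 24 samples of rat left ventricle was measured on arrays, of which 12 were of day 7. The authors deposited 1 table of intensity values, positive and linear; how the arrays were scanned, corrected for background and scaled, and when a cell was left blank, is not stated in the labels or the table. Samples were grouped by title. No array pair had identical values and 0 columns belonged to other samples. Listed intensities were put on the log2 scale with no added constant, R371 was dropped, and blanks stayed missing. Models were fitted in limma 3.58.1 (lmFit, eBayes) under R 4.3.3. Within-run values and the permutation within runs followed the runs of title numbers. The other exact permutation tests did not. In blocked fits, run terms came first, so that an operation effect the runs absorb is not estimated. The fit was tested on simulated data that had no difference between runs and had blanks in the same cells as the real data. That test therefore does not speak to run differences or to the rule for blanks. Folds are ratios of geometric means over listed values. Those of the 43 probes higher in the blocked fit of 12 arrays are instead adjusted for run. The number of arrays limits the precision.

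The comparison, the named probes and the 15 gene lists were chosen with earlier results of these data known. The lists and the cell type markers could not be used, because no probe could be named. The naming rule took up to 2 called probes in each direction by fold, leaving out probes whose mean log2 intensity was in the dimmest 25%, and by smallest p in a direction with no call; other probes are marked as chosen after their values were seen. Alternatives were quantile normalization, median centring, complete-probe scaling, adding 16 before the log2, leaving out the dimmest 25% of probes, fitting the 12 day 7 arrays, an intensity trend with robust eBayes, array weights, runs as a block, at least 2 or all 6 listed values per group, and leaving out each array or run. Scalings and leave-outs within the blocked fit of 12 arrays, and the test among runs, were added after seeing the data.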

Additional observations from a re-analysis of the deposited data

Results flagged for a closer look

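In 4 of 27 groups of 4 to 6 values, 1 array stood apart from the others by Dixon's test; chance alone gives about 1 in 20, and the probes had been named for their results. In sham, RG433 was 171.3 on A501 against 77.0 to 104 on the other 5 arrays, and R017 was 70.2 on A518 against 59.9 to 62.5 on the other 4. In MI, R237 was 103.5 on A519 against 71.4 to 80.8 on the other 5 arrays, and RG518 was 193.3 on A503 against 229 to 238 on the other 5. For RG433, R017 and R237 the array that stood apart did not make the operations overlap.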

How the results depend on the processing

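Over all 24 arrays, the 7 higher probes became 4 with quantile normalization, 12 with complete-probe scaling, 14 with only the 12 day 7 arrays, 21 with array weights (and 3 lower), 17 with runs as a block, 43 with the 12 arrays and the block (and 3 lower), 2 where all 6 values had to be listed in each group (208 probes tested), 0 without A513 to A516 and 2 without A517 to A520. Where all 6 values had to be listed, only 2 of the 7 could be tested, and both were called. Leaving out single arrays gave 2 to 8 higher and 0 lower probes. In the blocked fit of 12 arrays, complete-probe scaling gave 28 higher and 10 lower probes, and leaving out single arrays gave 11 to 54 higher and 0 to 14 lower. The difference in listed probes was 29.3 to 85.3 over the leave-outs. It was 29.3 without sham array A502 (exact permutation p = 0.519) and 85.3 without sham array A518 (exact permutation p = 0.0152). Labels were not permuted within runs in these leave-outs. The other alternatives gave counts within 1.5 times the original ones. No named probe changed direction under any alternative to the fit of all 24 arrays in which it could be tested. For the scalings and leave-outs within the blocked fit of 12 arrays, only counts were taken, and the directions of named probes were not looked at. The cause of these changes was not tested. No paired analysis was possible because the labels give no replicate numbers that the operations share. Probes listed on fewer than 3 arrays of either operation, 408 of the 894 listed at day 7, were not tested.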

Other observations

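Cells of exactly 100 were more frequent than any other value on the day 7 arrays. Beside probe R371, 28 of 6321 listed cells were exactly 100, with 1 to 4 on each of the 12 arrays and spread over 21 probes, and no other value occurred in more than 4 cells. R204 on the MI array A516 was one of these. Which step gave these values is not given in the sources used here.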
